A study of Mus musculus with 12 samples.

Results

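The contractile cytoskeleton genes Acta2, Tagln, Cnn1, Cnn2, Myl9, Tpm1, Tpm2 and Vcl, the intermediate filament gene Vim and the transcription factor gene Srf were followed in a pair of mouse mammary cancer cell lines, D2A1 and D2.OR, grown either without a gel (2D) or on a gel (3D). These 10 genes were taken by name from the 52550 genes of the RNA-seq data, and all 10 passed the filter on low counts that left 16823 genes for testing. The data hold 12 libraries in 4 groups of 3 replicates, which were D2A1 in 2D, D2A1 in 3D, D2.OR in 2D and D2.OR in 3D. The lines trace back to the D2 series of mouse mammary nodules, each to a tumor of its own, and serve as a proliferative (D2A1) and a dormant (D2.OR) model. In 3D, single cells are placed on a layer of Matrigel, a basement membrane gel. For RNA, wells were pooled, and the study treats the replicate number as the batch. The dormancy assay is described with 1 low-serum medium for 2D and 3D and standard 2D culture with another. The RNA methods refer to the cell culture section, which gives the standard 2D medium, but do not settle which medium the 2D libraries had. A difference of culture may thus include one of medium. In 3D, cells were also recovered from the gel on ice before RNA was extracted, and this handling cannot be told apart from culture. The study states in general that its findings rest on biological repeats, but neither the labels nor the RNA methods describe how these replicates were grown, so p-values measure the spread between these libraries. Each condition rests on 1 cell line, so differences between them cannot be told apart from other differences between these tumors, such as their ploidy, which was mostly triploid in D2.OR and mostly hypotetraploid in D2A1.

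Serum response factor, encoded by Srf, binds a short DNA element called the CArG box in the promoters of muscle and cytoskeletal genes. Its partners of the myocardin-related family (Mkl1 and Mkl2) are held in the cytoplasm by monomeric actin and enter the nucleus when actin polymerizes, so that transcription of actin-binding and contractile genes follows the state of the actin cytoskeleton. A second group of partners, the ternary complex factors of the Elk family, links SRF to the immediate-early genes such as Fos and Egr1. In the mammary gland, smooth muscle actin, calponin and transgelin mark contractile myoepithelial cells, and in carcinoma cells the same genes are found in spread, stiff or mesenchymal-like cells.

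Of the 10 genes, 9 had an entry in the RefSeq promoter table of build GRCm38.p6, and Tagln had none. A CArG box was searched for in the 250 bases before and 50 bases after each annotated start. It was defined as 10 bases that open with CC, close with GG and have A or T at all 6 positions between them. The element reads as a CArG box on both strands, and no other motif was searched. Srf (2 boxes), Cnn2, Myl9 and Vcl held an exact box, which makes 4 of 9 genes, against 535 of 32851 promoters in the table (1.63%). With 1 other base allowed among the central 6, Acta2 was added with 2 boxes and Myl9 had a second, which makes 5 of 9 genes against 9.98% of all promoters. No such letters were found in the windows of Tpm1, Tpm2, Cnn1 and Vim. The genes had been chosen as known contractile genes, many of them known SRF targets, so these shares describe the choice.

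The 250 bases before the start are shown for the 5 genes with a box, with every box, exact or near, in capitals. The windows are chr17:46556163-46556412 (minus strand), chr19:34255374-34255623 (minus strand), chr2:156775214-156775463 (plus strand), chr10:79988350-79988599 (plus strand) and chr14:20929148-20929397 (plus strand).
Srf: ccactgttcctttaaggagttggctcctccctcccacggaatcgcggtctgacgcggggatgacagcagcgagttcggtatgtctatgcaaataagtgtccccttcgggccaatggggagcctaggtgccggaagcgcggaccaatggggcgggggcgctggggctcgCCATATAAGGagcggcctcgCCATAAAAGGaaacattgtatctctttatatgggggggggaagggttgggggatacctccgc
Acta2: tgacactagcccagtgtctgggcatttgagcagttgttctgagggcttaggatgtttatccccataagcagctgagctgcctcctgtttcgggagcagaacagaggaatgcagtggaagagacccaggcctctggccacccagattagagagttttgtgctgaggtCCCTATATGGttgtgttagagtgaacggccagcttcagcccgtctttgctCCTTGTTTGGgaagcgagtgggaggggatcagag
Myl9: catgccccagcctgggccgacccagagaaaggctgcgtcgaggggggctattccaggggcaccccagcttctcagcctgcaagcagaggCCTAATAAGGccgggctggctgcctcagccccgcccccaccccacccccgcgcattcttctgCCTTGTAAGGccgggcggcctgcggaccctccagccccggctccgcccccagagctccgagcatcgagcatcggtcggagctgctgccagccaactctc
Cnn2: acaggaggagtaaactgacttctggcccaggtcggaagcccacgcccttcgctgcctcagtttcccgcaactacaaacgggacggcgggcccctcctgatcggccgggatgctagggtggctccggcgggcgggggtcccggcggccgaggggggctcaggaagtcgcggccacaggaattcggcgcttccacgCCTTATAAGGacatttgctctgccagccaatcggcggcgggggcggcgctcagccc
Vcl: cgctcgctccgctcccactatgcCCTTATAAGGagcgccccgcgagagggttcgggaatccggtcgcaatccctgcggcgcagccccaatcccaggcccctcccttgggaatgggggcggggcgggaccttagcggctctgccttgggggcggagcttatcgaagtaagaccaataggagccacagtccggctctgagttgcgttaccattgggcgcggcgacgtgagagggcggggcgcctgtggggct
The boxes of Srf lay at -82 to -73 and -62 to -53 from the start, and those of Acta2 at -84 to -75 and -34 to -25. Myl9 had its exact box at -161 to -152 and its near box at -99 to -90. The box of Cnn2 was at -56 to -47 and that of Vcl, far from the start, at -227 to -218.

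**Figure D1:**
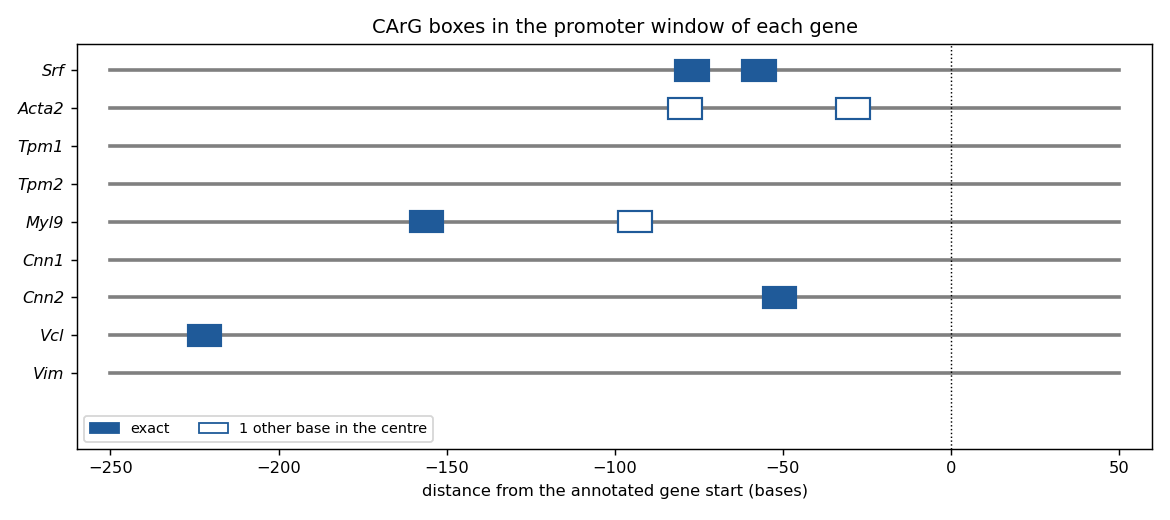
Position of CArG boxes in the promoter window of 9 genes, with the distance from the RefSeq start in bases on the x axis and 1 line per gene. Filled boxes are exact and open boxes have 1 other base in the centre; Srf has 2 exact boxes, and Tpm1, Tpm2, Cnn1 and Vim have none in the window.

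Libraries held between 47589613 and 73325057 expected counts (median 61747090), and levels are given as TPM, a transcript abundance scaled for transcript length and library size. On the first principal component (70.3% of the variance) the lines separated, and on the second (10.2%) the batch 1 library was highest in each group. D2A1 2D replicate 1 was the highest of its group for all 10 genes, while 42.7% of all tested genes were highest there, and the comparisons were also made without it. For 15 genes with at least 50 CPM in every D2.OR library and at most 1 CPM in D2A1 replicates 2 and 3, this library held a median of 0.0772% of the D2.OR level, against 0.0631% and 0.0478% in D2A1 2D replicates 2 and 3 and 0.0772%, 0.0599% and 0.0627% in D2A1 3D replicates 1, 2 and 3. Epithelial markers differed between the lines. The luminal keratin gene Krt8 ranged from 227.4 to 1021.96 TPM in D2.OR and from 0.78 to 2.31 TPM in D2A1, Epcam was at most 0.17 TPM in D2A1, and the basal keratin Krt5 was at most 0.03 TPM in all libraries. Krt14, another basal keratin, was at 0.57 to 1.81 TPM in 2D and 0.9 to 6.02 TPM in 3D in D2.OR, and at most 0.11 TPM in D2A1. The labels call both lines breast cancer cells. Of 6 mammary epithelial markers, 1 (Krt18) was at 1 TPM or more in every D2A1 library, and 4 were in every D2.OR library.

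All 10 genes were higher in D2.OR than in D2A1, in 2D and again in 3D. Over all tested genes, 49.8% differed between the lines in 2D (25.4% higher in D2.OR) and 53.8% in 3D (27.7% higher), and the share among the 10 genes was above that of the background in both cultures. The 10 genes were chosen with earlier results of these data known, so this share describes the choice. Fitted log2-fold changes ran from 0.76 (Srf) to 5.49 (Myl9) in 2D and from 0.77 (Srf) to 6.88 (Myl9) in 3D, and their medians were 1.78 (1.69 with Cnn1 at its lower bound) and 1.97, while the medians over all tested genes were -0.00338 and 0.000517. TPM values of the lines did not overlap for 10 of 10 genes in 2D (52.8% of all tested genes) and for 8 of 10 in 3D (57.4%). The 2 genes that overlapped in 3D were Cnn1 and Vim. Tests were made with edgeR's quasi-likelihood test on the counts with the batch as a block, and p-values were adjusted by Benjamini-Hochberg over all 16823 genes. In every batch taken alone, the log2 difference between the lines was also positive for 10 of 10 genes in both cultures. RNA was measured in bulk, so fewer cells of a type and less RNA per cell cannot be told apart.

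**Figure D2:**
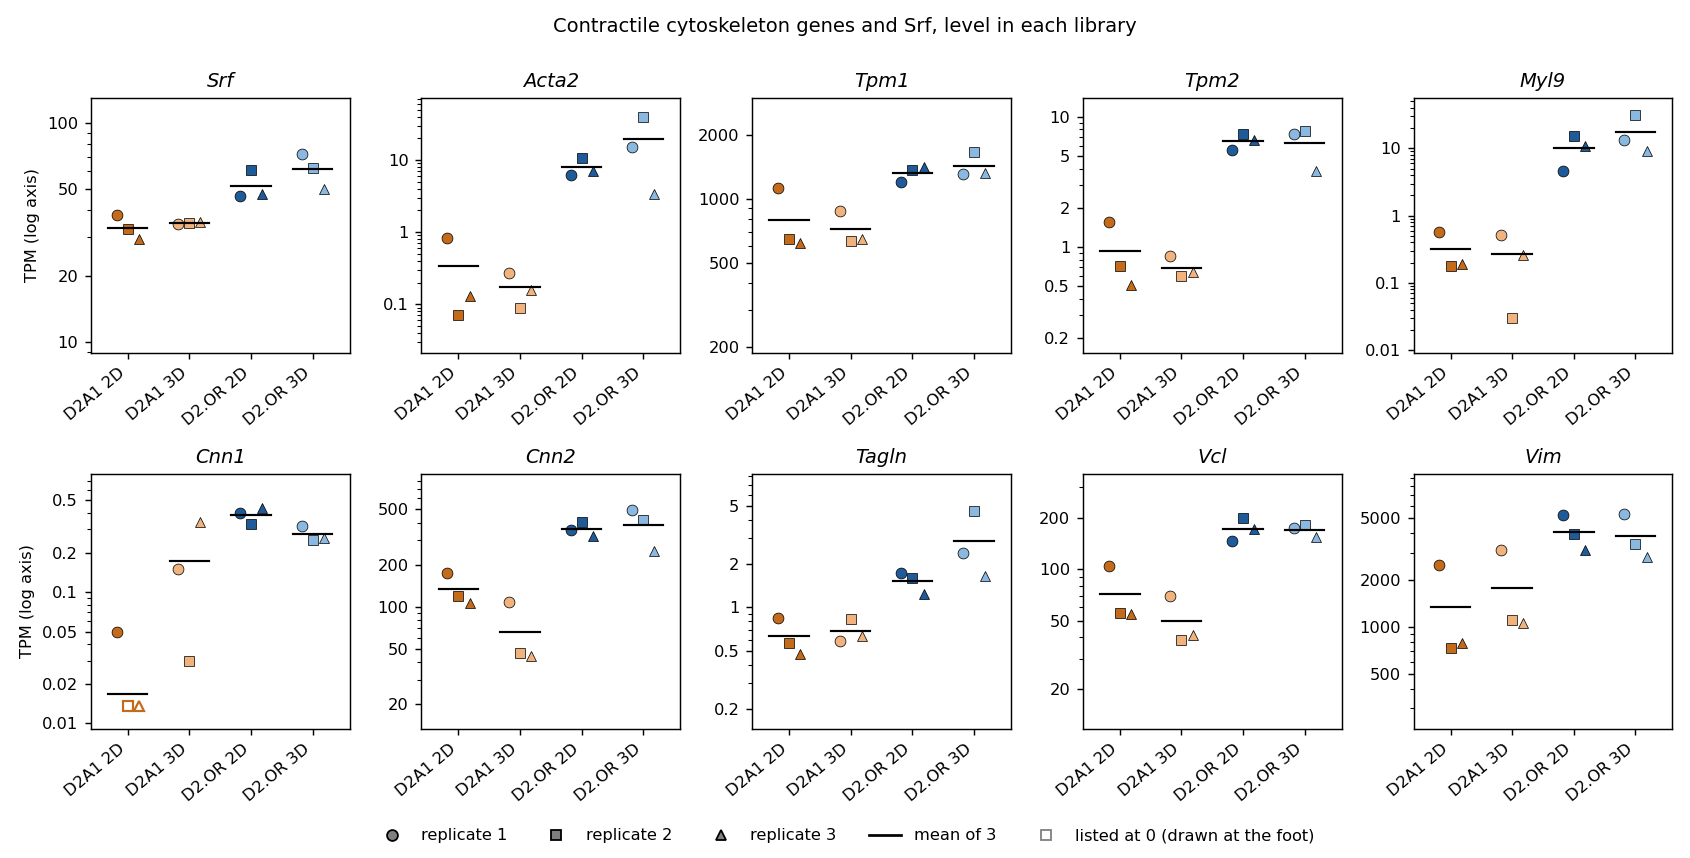
TPM of each gene in the 12 libraries, on log axes with 1 panel per gene, colors for the 4 groups, symbols for the replicates and a bar for the mean of 3. All D2.OR libraries lie above all D2A1 libraries except in 3D for Cnn1 and Vim; 2 Cnn1 values of 0 are drawn as open symbols at the foot.

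Srf itself was expressed at intermediate levels with little spread. In D2A1 it had 37.69, 32.54 and 29.37 TPM in 2D and 34.46, 34.65 and 35.36 TPM in 3D. In D2.OR the values were 46.05, 60.6 and 47.11 TPM in 2D and 71.8, 62.01 and 49.94 TPM in 3D. Every D2.OR library was above every D2A1 library, by 1.69-fold in 2D (log2-fold change 0.76, SE 0.14, edgeR adjusted p = 0.00164) and 1.71-fold in 3D (0.77, SE 0.14, edgeR adjusted p = 0.0013). These were the smallest differences among the 10 genes in both cultures. Without batch 2, the adjusted p in 2D was 0.0586 (edgeR, log2-fold change 0.61). The gene spans chr17:46546839-46556162 on the minus strand of GRCm38, the build of all gene positions here.

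Acta2 (chr19:34241090-34255336, minus strand), which encodes smooth muscle alpha actin, was close to absent in D2A1. It was at 0.82, 0.07 and 0.13 TPM in 2D and 0.27, 0.09 and 0.16 TPM in 3D, which came from 38, 4 and 7 counts and from 18, 6 and 11 counts. In D2.OR it reached 6.21, 10.73 and 7.15 TPM in 2D and 15.21, 40.07 and 3.35 TPM in 3D. No D2A1 library came near any D2.OR library, and within D2.OR in 3D replicate 2 was highest and replicate 3 was below every 2D library of the line. The difference between the lines was 29.6-fold in 2D (log2-fold change 4.89, SE 0.95, edgeR adjusted p = 0.00253) and 90.3-fold in 3D (6.50, SE 1.02, edgeR adjusted p = 0.000672). In batch 1, 2 and 3, the log2 difference in 2D was 3.00, 6.81 and 5.54. The size depended on single libraries. In 2D it was 6.53 without D2A1 replicate 1, which is close to the 3D value of 6.42 in the same fit, 4.10 without D2A1 replicate 2 and 6.78 without batch 1. In 3D it was 5.33 without D2.OR replicate 2, 7.13 without D2.OR replicate 3, 5.86 without D2A1 replicate 2, 5.17 without batch 2 and 7.25 without batch 3.

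Tropomyosins wind along actin filaments and control which myosins and other proteins bind them. Tpm1 (chr9:67022590-67049406, minus strand) was, with Vim, 1 of the 2 most abundant of the 10 genes in every group. It had 1126.06, 647.72 and 619.18 TPM in D2A1 in 2D, against 1197.26, 1366.49 and 1411.21 TPM in D2.OR. In 3D the values were 876.44, 633.66 and 647.47 TPM against 1305.89, 1654.07 and 1324.31 TPM. D2A1 2D replicate 1 came close to the D2.OR libraries, and the others did not. Tpm1 was 1.84-fold higher in D2.OR in 2D (log2-fold change 0.88, SE 0.21, edgeR adjusted p = 0.00779) and 1.95-fold in 3D (0.96, SE 0.21, edgeR adjusted p = 0.00436). The 2D call was lost without batch 2 (adjusted p = 0.0993) and without batch 3 (adjusted p = 0.121), and the 3D call without batch 2 (adjusted p = 0.0778). Tpm2 (chr4:43514711-43523765, minus strand), the muscle-type beta tropomyosin, was far less abundant, at 1.55, 0.72 and 0.51 TPM in D2A1 in 2D and 0.85, 0.6 and 0.64 TPM in 3D. In D2.OR it had 5.54, 7.34 and 6.69 TPM in 2D and 7.44, 7.72 and 3.85 TPM in 3D. Tpm2 was 8.06-fold higher in D2.OR in 2D (log2-fold change 3.01, SE 0.38, edgeR adjusted p = 0.000237) and 8.20-fold in 3D (3.04, SE 0.38, edgeR adjusted p = 0.000197), without overlap between the lines. Without batch 1 the 2D value was 3.62.

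Myl9 (chr2:156775420-156781658, plus strand) encodes the regulatory light chain of smooth muscle and nonmuscle myosin II, whose phosphorylation switches on contraction. In D2A1 it was at 0.58, 0.18 and 0.19 TPM in 2D and 0.52, 0.03 and 0.26 TPM in 3D, values that rest on between 1 and 16 counts per library. In D2.OR it was at 4.62, 15.18 and 10.74 TPM in 2D and 13.31, 31.03 and 9.13 TPM in 3D, from between 176 and 1094 counts. Myl9 had the largest fitted differences among the 10 genes, with a log2-fold change of 5.49 in 2D (SE 0.93, edgeR adjusted p = 0.00123) and 6.88 in 3D (SE 0.96, edgeR adjusted p = 0.000368). With so few counts in D2A1 the size is less certain than the direction, and within batches the 2D difference ran from 2.85 to 7.47. In 2D it was 7.79 without D2A1 replicate 1, 4.61 without D2A1 replicate 2, 6.20 without D2.OR replicate 1, 8.04 without batch 1 and 4.59 without batch 2. In 3D it was 7.64 without D2A1 replicate 1, 6.15 without D2A1 replicate 2, 7.75 without batch 1 and 5.90 without batch 2.

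Calponins bind actin and tropomyosin and restrain the myosin ATPase. Cnn2 (chr10:79988584-79996062, plus strand), the calponin of nonmuscle cells, had 175.15, 118.82 and 106.59 TPM in D2A1 in 2D and 107.49, 47.05 and 44.19 TPM in 3D. In D2.OR it had 353.1, 407.37 and 321.43 TPM in 2D and 494.29, 415.88 and 252.2 TPM in 3D. All D2.OR libraries were above all D2A1 libraries, by 3.07-fold in 2D (log2-fold change 1.62, SE 0.22, edgeR adjusted p = 0.000333) and 6.08-fold in 3D (2.60, SE 0.23, edgeR adjusted p = 2.41e-05). Cnn1 (chr9:22099216-22109630, plus strand), the smooth muscle calponin and a late differentiation marker, stayed near the limit of detection in both lines. D2A1 libraries held 3, 0 and 0 counts in 2D and 9, 3 and 4 counts in 3D, and D2.OR libraries held 10, 9 and 15 counts in 2D and 25, 19 and 14 counts in 3D. Taken against a floor of 3 counts per library, the D2.OR level of Cnn1 in 2D was at least 3.41-fold higher (edgeR adjusted p = 0.0107), and in 3D its log2-fold change was 2.01 (SE 0.66, edgeR adjusted p = 0.0282). In TPM it was 0.05, 0 and 0 in D2A1 in 2D, 0.15, 0.03 and 0.34 in D2A1 in 3D, 0.4, 0.33 and 0.44 in D2.OR in 2D and 0.32, 0.25 and 0.26 in D2.OR in 3D. The 0.34 TPM of D2A1 3D replicate 3 came from 4 counts on a mean transcript length of 449.65 bases, whereas the 0.03 TPM of replicate 2 came from 3 counts on 2381 bases. The Cnn1 call in 3D was lost in 9 of 23 other settings, with adjusted p up to 0.267 (limma on log2(TPM + 1)), among them each setting without D2A1 3D replicate 1 (0.052), replicate 2 (0.103) or replicate 3 (0.096) and without D2.OR 3D replicate 1 (0.0793) or replicate 2 (0.0973). In 2D it was lost without batch 2 (adjusted p = 0.104) and without batch 3 (adjusted p = 0.109).

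Tagln (chr9:45929619-45936058, minus strand) encodes transgelin, an actin-bundling protein of smooth muscle and one of the classical SRF targets. It was low in both lines, at 0.85, 0.57 and 0.48 TPM in 2D and 0.59, 0.83 and 0.64 TPM in 3D in D2A1. In D2.OR it was at 1.74, 1.6 and 1.23 TPM in 2D and 2.38, 4.61 and 1.64 TPM in 3D, and replicate 2 in 3D was the highest library. Tagln was 2.48-fold higher in D2.OR in 2D (log2-fold change 1.31, SE 0.34, edgeR adjusted p = 0.0111) and 3.80-fold in 3D (1.93, SE 0.34, edgeR adjusted p = 0.00125). The 2D call was lost without D2A1 2D replicate 2 (adjusted p = 0.0525), without batch 2 (0.0707) and without batch 3 (0.0921). Tagln overlaps AC122273.2 on the opposite strand over 3627 bases, and that gene was at 1.07 to 3.49 TPM, a range that overlaps that of Tagln. It also overlaps Pcsk7 on the opposite strand over 108 bases, and Pcsk7 was at 20.17 to 28.18 TPM, above Tagln in all libraries. Whether strand was used in counting is not given in the sources used here, so reads of Tagln and these genes may not be told apart.

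Vcl (chr14:20929398-21033676, plus strand) encodes vinculin, which ties actin filaments to integrin adhesions and cadherin junctions. Its levels were 105.04, 55.44 and 54.95 TPM in 2D and 69.99, 38.72 and 41.38 TPM in 3D in D2A1, and 145.08, 198.89 and 172.4 TPM in 2D and 173.7, 180.88 and 153.08 TPM in 3D in D2.OR. The lines did not overlap, with a log2-fold change of 1.45 in 2D (SE 0.25, edgeR adjusted p = 0.00142) and 1.78 in 3D (SE 0.25, edgeR adjusted p = 0.000404). Vcl overlaps Ap3m1 on the opposite strand over 2235 bases, and Ap3m1 was at 61.43 to 79.57 TPM in the 12 libraries.

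Vim (chr2:13573927-13582826, plus strand) encodes vimentin, the intermediate filament protein of mesenchymal cells, and was the most abundant of the 10 genes in each group mean. In D2A1 it had 2482.33, 732.67 and 794.13 TPM in 2D and 3137.83, 1111.28 and 1061.38 TPM in 3D. In D2.OR it had 5234.66, 3938.68 and 3105.22 TPM in 2D and 5313.3, 3386.29 and 2831.24 TPM in 3D. Replicate 1 was highest in each of the 4 groups, and in 3D the D2A1 library of batch 1 was above the D2.OR library of batch 3. Vim was 3.82-fold higher in D2.OR in 2D (log2-fold change 1.93, SE 0.24, edgeR adjusted p = 0.000216) and 2.37-fold in 3D (1.25, SE 0.24, edgeR adjusted p = 0.00196). Within batches 1, 2 and 3 the 3D difference was 0.746, 1.57 and 1.39, and without the batch block its adjusted p was 0.111 (edgeR). Among all tested genes 13.3% differed between batch 1 and batches 2 and 3 (8.48% higher in batch 1), and of the 10 genes Vim alone did, with a log2 difference of 1.15 (SE 0.17, edgeR adjusted p = 0.00446). It did not pass without batch 2 (adjusted p = 0.0666) or batch 3 (adjusted p = 0.1). Cnn2 had 0.55 (SE 0.16, edgeR adjusted p = 0.0502).

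**Figure D3:**
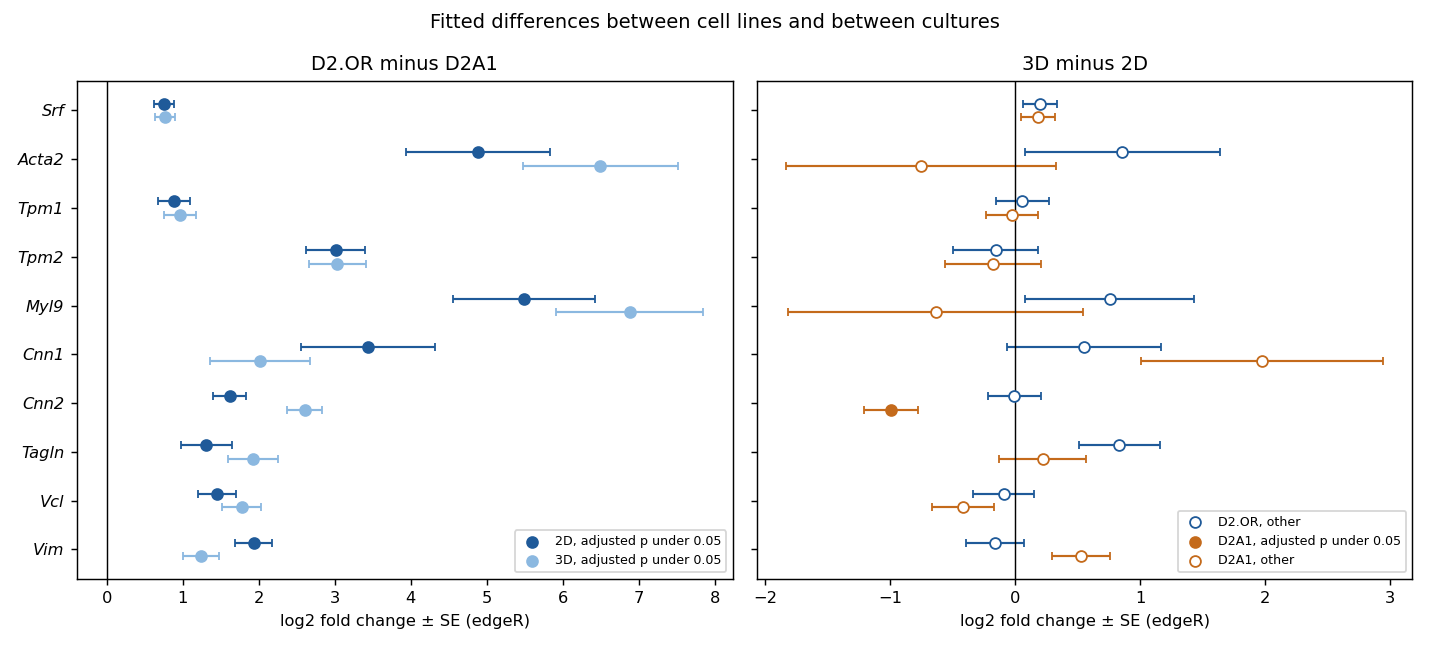
Fitted log2-fold change of each gene on the x axis, with bars for the SE, between the lines (left panel) and between the cultures (right panel). Filled points have an adjusted p under 0.05; between the lines all points are filled and lie from 0.76 to 6.88, and between the cultures Cnn2 in D2A1 alone is filled. The fitted Cnn1 values that use D2A1 in 2D rest on libraries with 3 counts or fewer.

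The order of levels in D2.OR in 2D was Vim (4093 ± 1073 TPM, SD, n = 3), Tpm1 (1325 ± 113), Cnn2 (360.6 ± 43.5), Vcl (172 ± 26.9), Srf (51.3 ± 8.11), Myl9 (10.2 ± 5.30), Acta2 (8.03 ± 2.39), Tpm2 (6.52 ± 0.912), Tagln (1.52 ± 0.264) and Cnn1 (0.39 ± 0.0557). The library values of Myl9, Acta2 and Tpm2 overlapped, and those of the other neighbors in this order did not. In D2A1 in 2D the same 5 genes led, as Vim (1336 ± 993), Tpm1 (798 ± 285), Cnn2 (133.5 ± 36.6), Vcl (71.8 ± 28.8) and Srf (33.2 ± 4.20), of which only Vim and Tpm1 overlapped between neighbors. The rest, Tpm2 (0.927 ± 0.55), Tagln (0.633 ± 0.193), Acta2 (0.34 ± 0.417), Myl9 (0.317 ± 0.228) and Cnn1 (0 to 0.05 TPM), were all under 1 TPM on average. In 3D the same 5 genes led in both lines, and in D2.OR Acta2 (19.5 ± 18.7 TPM) and Myl9 (17.8 ± 11.6 TPM) followed, with overlapping libraries.

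Levels in 3D and 2D were compared within each line to ask whether the matrix moved these genes. In D2.OR, none of the 10 genes differed between 3D and 2D by edgeR (adjusted p from 0.227 to 0.995, with 1 gene at an unadjusted p under 0.05, against 17.6% of all tested genes), where 1.62% of all tested genes did, and DESeq2 also called none. The largest fitted values were 0.86 for Acta2 (SE 0.78, edgeR adjusted p = 0.605) and 0.83 for Tagln (SE 0.32, edgeR adjusted p = 0.227), the gene with the unadjusted p of 0.0295. Tagln, Myl9 and Srf were higher in 3D in each of the 3 batches, Vim was lower in each, and the other 6 went both ways. For Acta2 the difference was 1.16, 1.87 and -1.09 in batches 1, 2 and 3, so its direction changed with the batch. In TPM, 1 of 10 genes did not overlap between the cultures in D2.OR (Cnn1, 20.6% of all tested genes), although its counts were higher in 3D in replicates 1 and 2 only, and its TPM was lower in 3D.

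In D2A1, Cnn2 was lower in 3D than in 2D and was 1 of 10 genes called, against 3.48% of all tested genes (2.12% lower). Its log2-fold change was -0.99 (SE 0.22, edgeR adjusted p = 0.0472). Batches 1, 2 and 3 taken alone gave -0.72, -1.12 and -1.20. The TPM values of the groups still overlapped, as 107.49 TPM in 3D replicate 1 was above 106.59 TPM in 2D replicate 3. The call stood close to the threshold and held in 10 of 24 other settings. It was lost without the batch block (adjusted p = 0.116), without batch 2 (0.516) or batch 3 (0.538), and with leaving out D2A1 2D replicate 2 (adjusted p = 0.149) or replicate 3 (0.174) and D2A1 3D replicate 2 (0.228) or replicate 3 (0.223), or D2.OR 2D replicate 2 (0.0741) or replicate 3 (0.0723) and D2.OR 3D replicate 1 (0.0551), replicate 2 (0.0704) or replicate 3 (0.0764). Without D2A1 2D replicate 1, the number called rose to 3, with Vim higher (log2-fold change 0.82, edgeR adjusted p = 0.021) and Cnn1 higher from 2 remaining 2D libraries without a count (adjusted p = 0.0358). With this library, Vim was at 0.52 (SE 0.23, edgeR adjusted p = 0.159). Vcl was lower in 3D in all 3 batches (-0.563 to -0.268), with a fitted value of -0.42 (SE 0.25, edgeR adjusted p = 0.27). The TPM values of the cultures did not separate for any of the 10 genes in D2A1 (0 of 10, against 24.8% of all tested genes).

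The difference between the responses of the lines to 3D was fitted as an interaction. None of the 10 genes passed by edgeR (adjusted p from 0.169 to 0.993, with 1 gene at an unadjusted p under 0.05, against 17.8% of all tested genes), where 0.0238% of all tested genes did, and by DESeq2 1 did. That gene was Cnn2, with an interaction of 0.99 on the log2 scale (SE 0.30, edgeR adjusted p = 0.169, DESeq2 adjusted p = 0.037). In batches 1, 2 and 3 it was 1.08, 1.11 and 0.896, the narrowest range of the 3 genes with 1 direction in all batches. The others were Vim (-0.489, -0.953 and -0.678) and Vcl (0.0965 to 0.696). Without batch 1, Cnn2 (1.01, edgeR adjusted p = 0.0145) and Vim (-0.81, edgeR adjusted p = 0.0212) passed, and Cnn2 passed without D2A1 3D replicate 1 (1.28, edgeR adjusted p = 0.0421) and Vim without D2A1 2D replicate 1 (-0.99, edgeR adjusted p = 0.0471). For Srf the interaction was 0.01 (SE 0.19, edgeR adjusted p = 0.983), and for Acta2 1.61 (SE 1.33, edgeR adjusted p = 0.539).

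**Figure D4:**
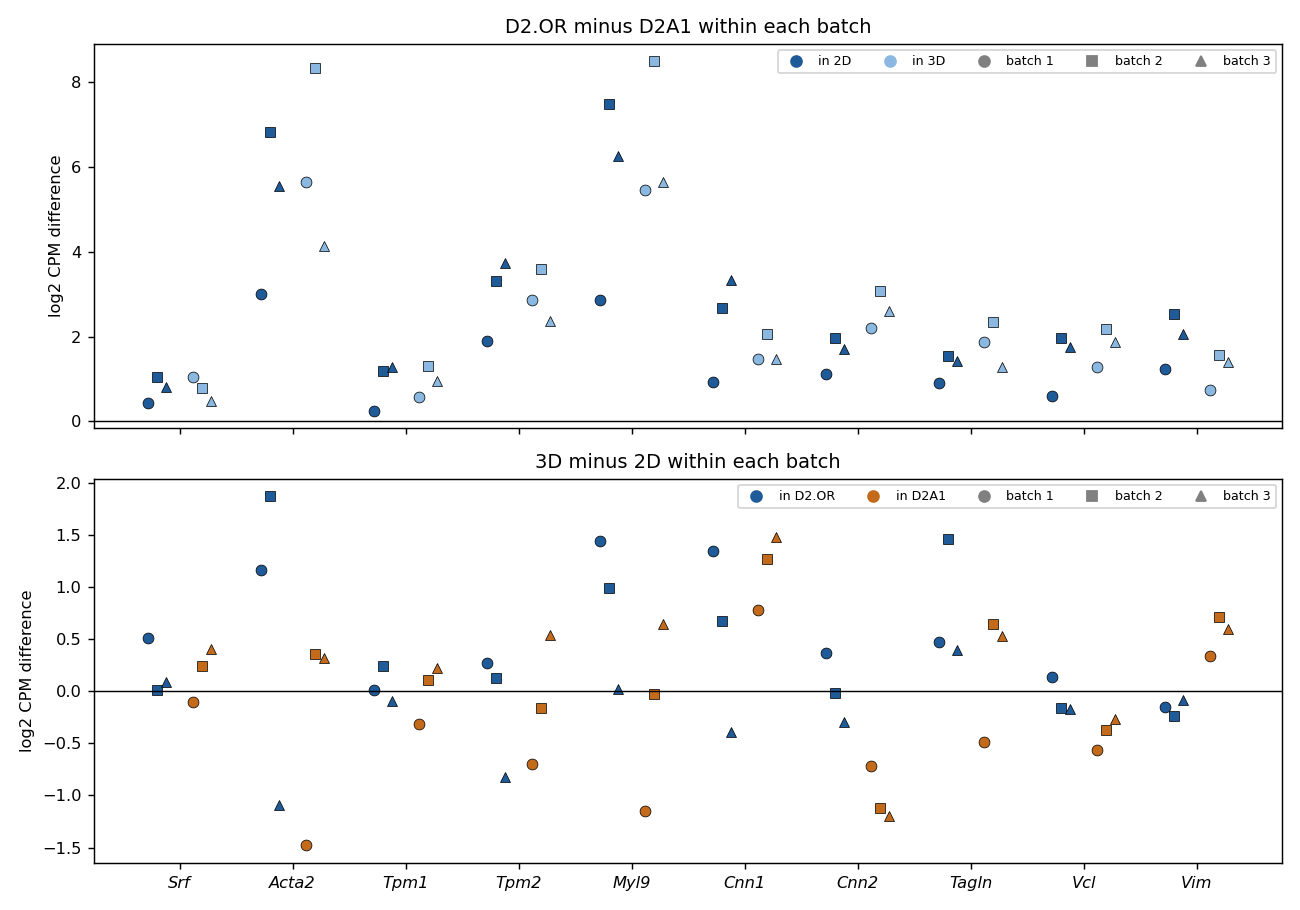
Log2 CPM difference within each batch, between the lines (upper panel) and between the cultures (lower panel), with 1 column of points per gene and symbols for the batches. All points of the upper panel lie above 0, and in 2D batch 1 is the lowest of the 3 for all 10 genes, whereas in the lower panel most genes have points on both sides of 0.

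Batch 1 had the smallest line difference in 2D for 10 of 10 genes, while 40.6% of all tested genes and 47.2% of the genes higher in D2.OR had their lowest difference there. Without D2A1 2D replicate 1, all 10 genes were called in 2D with a median log2-fold change of 1.97 (range 0.86 to 7.79), and without batch 1 with a median of 2.08 (0.92 to 8.04). In 3D without batch 1, all 10 were called with a median of 2.15. In D2A1 2D replicate 1 the summed TPM of the fibroblast (75.53), skeletal and cardiac muscle (24.3) and mammary epithelium (296.9) markers was the highest of its group, and that of the smooth muscle, endothelial and leukocyte markers was not. Of single markers, Tnnt2 was highest there (24.1 TPM against 1.98 and 2.52 TPM). Of 5 fibroblast markers, Pdgfrb (55.92 TPM against 31.67 and 28.09 TPM) and Col1a1 (3.33 TPM against 0.76 and 0.39 TPM) were highest there, Pdgfra (16.13 TPM against 24.04 and 27.57 TPM) and Dcn (0.15 TPM against 0.91 and 0.94 TPM) were lowest, and Lum was at 0 in the group. Their part in the result was not tested.

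Markers of other cell types were read beside these results. Of 6 mature smooth muscle markers, Smtn alone reached 1 TPM in every library of any group (30.67 to 62.71 TPM) and made up most of the summed 31.63 to 63.32 TPM. The defining smooth muscle genes Myh11 (0.02 to 0.14 TPM) and Myocd (0 to 0.06 TPM) were at or near 0 in all 12 libraries. The sum over 5 fibroblast markers was higher in D2.OR, at 56.99 to 75.53 TPM in 2D and 28.47 to 43.72 TPM in 3D in D2A1, and 179.2 to 335.4 TPM in 2D and 116.9 to 317.9 TPM in 3D in D2.OR. Within this list Col1a1 ran from 7.65 to 57.15 TPM in D2.OR and from 0.26 to 3.33 TPM in D2A1, while Lum was at most 0.34 TPM. Pdgfra and Pdgfrb made up most of the sum, and Dcn did not follow it in 3D, where the lines overlapped, at 0.51 to 6.89 TPM in D2A1 and 0.48 to 2.53 TPM in D2.OR. The sum of the 6 epithelial markers was also higher in D2.OR, at 1165 to 1716 TPM in 2D and 422.3 to 876.9 TPM in 3D, against 205.2 to 296.9 TPM and 94.02 to 220.5 TPM in D2A1. Skeletal and cardiac markers summed to 19.71 to 33.93 TPM in D2.OR and 2.1 to 24.3 TPM in D2A1, mostly Tnnt2, with Myog at most 0.04 TPM. Endothelial markers summed to at most 0.89 TPM, and leukocyte markers to 2.26 to 32.14 TPM, of which Cd68 made nearly all and Ptprc at most 0.05 TPM. The part of these cells or programs in the line differences was not tested.

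Each contractile gene has close relatives with which it can share reads, and these were read as a list. Of 14 paralogs, 12 were tested, and in 2D 8 were higher in D2.OR, 1 was lower and 3 did not pass (median 0.87), where 25.4% of all tested genes were higher and 49.8% were called. In 3D 7 were higher, 2 lower and 3 did not pass (median 0.57), where 27.7% of all genes were higher and 53.8% were called. Among the actins, the cytoplasmic genes Actb (log2-fold change 0.78, edgeR adjusted p = 0.0127) and Actg1 (1.05, edgeR adjusted p = 0.00297) were higher in D2.OR in 2D, and together they made up nearly all actin TPM. In 3D Actb had 0.46 (edgeR adjusted p = 0.0902). Acta2 took 0.00946% of actin TPM in D2A1 in 2D (0.00286% to 0.02% over libraries) and 0.16% in D2.OR (0.134% to 0.205%), and in 3D 0.00489% (0.00284% to 0.00736%) and 0.367% (0.074% to 0.741%). Actb took 60% ± 1.06 (SD, n = 3) in D2A1 in 2D and 55.4% ± 1.86 in D2.OR. Skeletal actin, Acta1, was at 0.133 ± 0.0493 TPM in D2A1 in 2D and 4.17 ± 1.34 TPM in D2.OR, with a log2-fold change of 5.14 (edgeR adjusted p = 2e-05). Enteric actin, Actg2, had a line difference of 1.54 in 2D (edgeR adjusted p = 0.234) and was higher in D2.OR by 3.79 in 3D (edgeR adjusted p = 0.00751), and cardiac actin, Actc1, was at or near 0. Of the 15 fits that each left out a library or a batch, Actb lost its 2D call in 5 (batch 2, batch 3, D2A1 2D replicates 2 and 3, D2.OR 2D replicate 3; edgeR adjusted p up to 0.161, log2-fold change 0.58 to 1.15). Actg1 lost its 2D call without batch 2 or batch 3 (edgeR adjusted p up to 0.0749), and Actg2 its 3D call without batch 2 (edgeR adjusted p = 0.0878; log2-fold change 2.70 to 4.32 over the 15 fits). The expected counts of Acta2 were whole numbers in all 12 libraries, as were those of 7 other genes, to the 2 decimals that the files print, and those of Tagln and Vcl were not whole in any library.

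In the tropomyosin family, the shares of Tpm3 and Tpm4 differed between the lines without overlap in 2D. Tpm1 took 47.1% ± 7.35 in D2A1 and 48.6% ± 2.71 in D2.OR in 2D. Tpm4 took 19.5% (16% to 23.3%) in D2A1 and 34.3% (30.4% to 36.9%) in D2.OR, whereas Tpm3 took 33.4% (28.6% to 36.5%) and 16.8% (15.7% to 17.6%). By level, Tpm4 was higher in D2.OR (log2-fold change 1.69, edgeR adjusted p = 0.000117), and Tpm3 had -0.12 in 2D (edgeR adjusted p = 0.422) and -0.58 in 3D (edgeR adjusted p = 0.0031). Among calponins, Cnn3 was higher in D2.OR (0.96, edgeR adjusted p = 0.000663) and remained the main calponin, with 76.1% ± 0.939 in D2A1 and 67.2% ± 1.58 in D2.OR in 2D, Cnn2 taking 23.9% and 32.7%. Tagln took 0.365% of transgelin TPM in D2A1 (0.229% to 0.585%) and 0.482% in D2.OR (0.313% to 0.666%) in 2D, where Tagln2 was at 187.7 ± 53.8 and 330.5 ± 66.8 TPM (log2-fold change 1.004, edgeR adjusted p = 0.00055). Tagln2 was the paralog that rose in D2A1 in 3D (0.92, edgeR adjusted p = 0.0282), and its line difference in 3D was -0.04 (edgeR adjusted p = 0.813). The rise was not called in 9 of the 15 fits with a library or batch left out, which were batch 2, batch 3, replicates 2 and 3 of D2A1 2D, D2A1 3D and D2.OR 2D, and D2.OR 3D replicate 3 (edgeR adjusted p up to 0.538, log2-fold change 0.76 to 1.06 over the 15). Tagln3 was at or near 0. Of the regulatory light chains, Myl12a was higher in D2.OR (0.79, edgeR adjusted p = 0.00254), Myl12b had 0.19 (edgeR adjusted p = 0.141), and Myl9 took 0.0349% of their TPM in D2A1 (0.0254% to 0.0535%) and 0.874% in D2.OR (0.365% to 1.37%). Ctnna1, the vinculin relative at cadherin junctions, was higher (0.48, edgeR adjusted p = 0.00576), and the muscle intermediate filament gene Des was lower in D2.OR (-3.14, edgeR adjusted p = 0.00515), at 0.337 ± 0.15 TPM in D2A1 and 0.02 ± 0.0173 TPM in D2.OR. Calls were lost for Myl12a in 2D without batch 2 or batch 3 (edgeR adjusted p up to 0.0635), for Ctnna1 in 2D without batch 3 (edgeR adjusted p = 0.102) and for Tpm3 in 3D without batch 2 (edgeR adjusted p = 0.0535).

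Of the partners of SRF, 9 of 10 were tested. In 2D 5 were higher in D2.OR, 1 was lower and 3 did not pass (median 0.44), against 49.8% of all tested genes called and 25.4% higher, and in 3D 6 were higher and 1 lower (median 0.48), against 53.8% called and 27.7% higher. Nfatc4, a calcium-regulated partner, was higher by 2.33 (edgeR adjusted p = 8.24e-05), at 43.95 ± 18.04 TPM in D2.OR and 9.40 ± 0.947 TPM in D2A1. The ternary complex factors went apart, with Elk3 higher (1.10, edgeR adjusted p = 0.000155) and Elk1 lower (-0.47, edgeR adjusted p = 0.00202). Fhl2, a LIM protein that binds SRF, was higher in 2D (1.15, edgeR adjusted p = 0.0155). Gata6 had no count in 2D in D2A1 and was at 0.0833 TPM in D2.OR, at least 2.66-fold higher (edgeR adjusted p = 0.00737). Mkl1 and Mkl2 were outside the rule for named genes and were chosen after their values were seen. Mkl1 was higher in both cultures (0.44 in 2D, edgeR adjusted p = 0.0287, and 0.54 in 3D, edgeR adjusted p = 0.0105), and Mkl2 had 0.08 and -0.15 (edgeR adjusted p = 0.548 and 0.232). The 2D calls of Fhl2 (edgeR adjusted p up to 0.194) and Mkl1 (up to 0.275) were each lost in 6 of the 15 fits with a library or batch left out (batch 2, batch 3, and replicates 2 and 3 of both 2D groups). Mkl1 lost its 3D call in 3 (batch 2, batch 3, D2A1 3D replicate 2; edgeR adjusted p up to 0.123), and Gata6 its 2D call without batch 3 (edgeR adjusted p = 0.0535). Hopx, which antagonizes SRF in the heart, was at 0.623 ± 0.196 TPM in 2D and 6.32 ± 2.76 TPM in 3D in D2.OR (3.26, edgeR adjusted p = 0.0682).

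Of 24 other cytoskeletal targets of SRF, 11 were higher in D2.OR in 2D, 3 were lower and 10 did not pass (median 0.36). The share called was near the 49.8% of all tested genes, of which 25.4% were higher, so the 2D count is no result about these targets. In 3D 16 were higher and 4 lower (median 0.64), against 53.8% of all genes called and 27.7% higher. For the LIM-domain gene Fhl1, no D2A1 library exceeded 3 counts, and D2.OR was at least 138-fold higher in 2D and 131-fold in 3D. Csrp2, a LIM protein of smooth muscle, was at 168.6 ± 112 TPM in D2.OR and 15.5 ± 3.96 TPM in D2A1 in 2D (log2-fold change 3.43, edgeR adjusted p = 4.66e-05), and in D2.OR it rose further in 3D to 651.4 ± 461 TPM (1.83, edgeR adjusted p = 0.0285). Svil, which encodes supervillin, was higher (1.86, edgeR adjusted p = 7.01e-06). The nonmuscle myosin heavy chains moved apart, with Myh9 higher (0.61, edgeR adjusted p = 0.0102) and Myh10 lower (-1.07, edgeR adjusted p = 2.63e-05) in D2.OR in 2D. In 3D, Myh9 fell by 0.85 in D2A1 (log2 scale, edgeR adjusted p = 0.0359), where Flnc fell too (-0.63, edgeR adjusted p = 0.0396), and Myh10 fell by 0.48 in D2.OR (log2 scale, edgeR adjusted p = 0.041). These calls between cultures, and that of Csrp2, did not hold in all fits. Without batch 2, no gene of the 17005 tested was called by edgeR between 3D and 2D in either line (1221 in D2.OR and 1537 in D2A1 at an unadjusted p under 0.05). Myh9 and Flnc each lost the call in 10 of the 15 fits with a library or batch left out, namely batch 2, batch 3 and every single library of these batches (edgeR adjusted p up to 0.538). Csrp2 lost it in 9, namely batch 2, batch 3, D2A1 2D replicate 2, D2A1 3D replicate 2, D2.OR 2D replicates 2 and 3 and each D2.OR 3D library (edgeR adjusted p up to 0.525, log2-fold change 1.56 to 2.10). Myh10 lost it in 11 and kept it without batch 1, D2A1 2D replicates 1 or 3 or D2A1 3D replicate 1 (edgeR adjusted p up to 0.529). Between the lines in 2D, the Myh9 call was lost without batch 2 or batch 3 (edgeR adjusted p up to 0.111).

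Of the 8 immediate-early targets, 6 were higher in D2.OR in 2D and none was lower (median 1.59), against 25.4% of all tested genes higher. Egr1 lost this call in 7 of the 15 fits with a library or batch left out, and Egr2 in 6. Without D2.OR 2D replicate 3, the calls of Egr1, Egr2 and Junb were all lost. In batch 1, 4 of 8 (Fos, Egr1, Egr2 and Mcl1) were higher than in batches 2 and 3, against 8.48%. These batch calls were lost in 8, 9, 13 and 12 of 14 such fits, and Mcl1 was not called between the lines in 2D. Fos had a log2-fold change of 2.35 (edgeR adjusted p = 0.00277), at 92.7 ± 61.7 TPM in D2.OR and 24.2 ± 19.9 TPM in D2A1, Ier2 1.52 (edgeR adjusted p = 0.00323), Fosb 2.09 (edgeR adjusted p = 0.00584) and Junb 1.07 (edgeR adjusted p = 0.0124). The Fos value ran from 1.59 to 2.89 with a library or batch left out (edgeR adjusted p up to 0.045). Fosb lost its call without batch 2 (edgeR adjusted p = 0.0554), and its lowest log2-fold change with a library or batch left out was 1.38. Junb lost its call without batch 2, batch 3 or D2.OR 2D replicate 3 (edgeR adjusted p up to 0.0883). Egr1 was at 147 ± 61.4 TPM in 2D and 50.4 ± 66.1 TPM in 3D in D2A1 (-2.09, edgeR adjusted p = 0.0624). In 3D 4 were higher (27.7% of all tested genes) and 4 did not pass, and neither line had a call between 3D and 2D.

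Genes for actin monomer binding and turnover gave 8 higher, 1 lower and 3 that did not pass of 12 tested in 2D (median 0.50), against 25.4% of all tested genes higher and 49.8% called. The 2D calls of Pfn1, Cfl1, Capzb and Gsn were all lost without D2A1 2D replicate 2, and again without D2.OR 2D replicate 2. Of the 15 fits with a library or batch left out, they were lost in 10, 6, 3 and 7, and that of Cap1 in 1. In 3D 5 were higher and 2 lower (median 0.23), and the share called was near the 53.8% of all genes (27.7% higher). Thymosin beta 4, Tmsb4x, which sequesters monomers, was at 750 ± 38.1 TPM in D2.OR and 56.9 ± 20.2 TPM in D2A1 (3.86, edgeR adjusted p = 9.58e-06). Profilin 2, Pfn2, went the other way, at 3.57 ± 0.397 and 61.1 ± 3.98 TPM (-3.96, edgeR adjusted p = 1.24e-07), and rose in D2.OR in 3D (1.07, edgeR adjusted p = 0.00873). The Pfn2 rise was not called without batch 2, batch 3, D2.OR 2D replicates 2 or 3 or D2.OR 3D replicate 2 (edgeR adjusted p up to 0.474). The depolymerizing factors Cfl2 (1.14, edgeR adjusted p = 1.57e-05) and Dstn (0.77, edgeR adjusted p = 8.2e-05) were higher in D2.OR. Between 3D and 2D in D2A1, profilin 1, Pfn1, had 0.66 (edgeR adjusted p = 0.0628) and Cap1 -0.31 (edgeR adjusted p = 0.0808), and neither passed. Of 15 focal adhesion partners of vinculin, 10 were higher in D2.OR and none was lower, in 2D (median 0.83, against 25.4% of all tested genes higher) and in 3D (median 0.89, against 27.7%). Tln2 (2.86, edgeR adjusted p = 1.76e-05), Lims1 (1.48, edgeR adjusted p = 1.67e-05) and Fermt2 (1.37, edgeR adjusted p = 2.01e-05) were among them, and Fermt1 was at least 40-fold higher in 2D against a D2A1 level of 3 counts or fewer. Between 3D and 2D, Tes had -0.57 in D2.OR (edgeR adjusted p = 0.117) and the tensin gene Tns3 -0.61 in D2A1 (edgeR adjusted p = 0.0508), and neither passed. Paxillin, Pxn, was lower in 3D in both lines (-0.54 in D2.OR, edgeR adjusted p = 0.041, and -0.45 in D2A1, edgeR adjusted p = 0.0496), with a line difference of 0.10 in 2D (edgeR adjusted p = 0.457). The Pxn call in D2.OR was lost in 10 of the 15 fits with a library or batch left out and kept without batch 1, D2A1 2D replicates 1 or 3, D2A1 3D replicate 1 or D2.OR 3D replicate 1 (edgeR adjusted p up to 0.545). In D2A1 it was lost in 12 and kept without batch 1, D2A1 2D replicate 1 or D2A1 3D replicate 1 (edgeR adjusted p up to 0.538). Beside Vim, 4 of 9 cytoplasmic intermediate filament genes were tested, of which Nes was higher (1.17, edgeR adjusted p = 0.0178) and Des lower in D2.OR in 2D, and Synm (0.92, edgeR adjusted p = 0.0525) and Prph (-1.07, edgeR adjusted p = 0.0563) did not pass (median -0.0743), against 49.8% of all tested genes called. In 3D Synm was higher (3.19, edgeR adjusted p = 0.000136), and Prph (-2.01, edgeR adjusted p = 0.00243) and Des were lower (median -1.20), against 53.8% of all genes called. Nes lost its 2D call without batch 2, batch 3 or replicates 2 or 3 of either 2D group (edgeR adjusted p up to 0.18), and Des its 3D call without batch 2, batch 3 or D2A1 3D replicate 2 (edgeR adjusted p up to 0.0745). All these lists were written with earlier results of the data known, so their counts describe the lists.

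**Figure D5:**
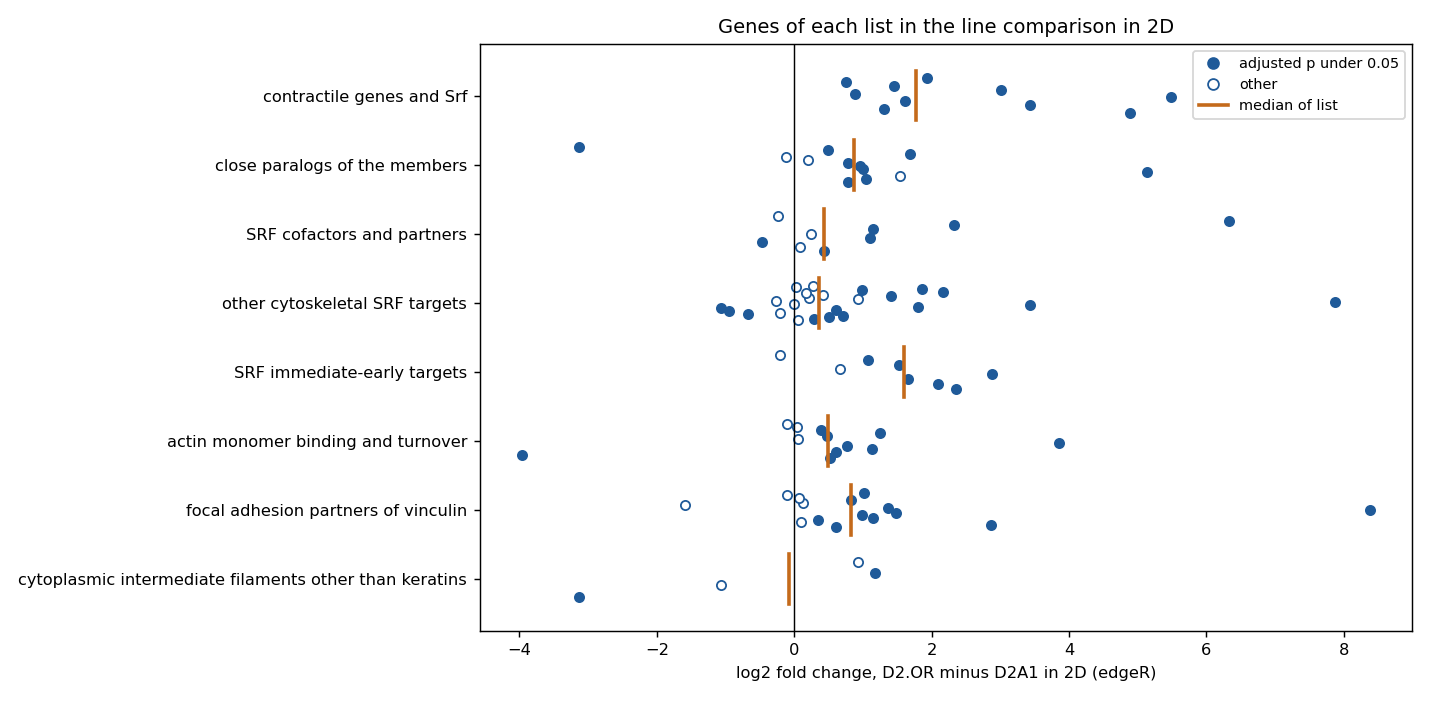
Log2-fold change of D2.OR against D2A1 in 2D for the genes of each list described, 1 point per tested gene, filled where the adjusted p is under 0.05, with a bar for the median of the list. The 10 genes of the top row lie between 0.76 and 5.49 (median 1.78), and the medians of the other lists lie between -0.0743 and 1.59; fitted values of Cnn1, Gata6, Fhl1 and Fermt1 rest on D2A1 groups at 3 counts or fewer.

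The mean transcript length that RSEM reports for a gene moves when isoforms of different length change in share, and it is the trace of isoform use in these data. A change of share between isoforms of equal length leaves it as it is, so an unchanged length cannot exclude other isoform use. For Tpm1, known for its many splice forms, it was 1496.5 ± 27.9 bases in D2A1 and 1480.5 ± 7.87 bases in D2.OR in 2D (log2 difference -0.02, SE 0.02, limma adjusted p = 0.787). No gene of the 10 differed in length between the lines by limma (adjusted p from 0.511 to 1 in 2D and from 0.466 to 0.949 in 3D), where 1.9% of 11277 tested genes did in 2D and 2.78% in 3D. For Myl9, D2A1 lengths of 345 to 1128 bases rest on 1 to 16 counts per library, so its test cannot decide. Acta2 (1781 bases) and Srf (4093 bases) had a single length in all libraries, and Cnn1 had libraries without a count, so these 3 were not tested.

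By the root mean square difference of centered log2 CPM over the 12 libraries, among 12709 genes, the gene most like Acta2 was Myl9 (0.543), and Acta1 (0.776) was also among the nearest 3, while the median gene was at 3. Nearest to Tagln were Bscl2 (0.345), Car5b (0.362) and Wnt2b (0.371), and nearest to Srf were Zfp869 (0.0898), Tmem123 (0.13) and 2310011J03Rik (0.132). Bscl2 went from 14.76 to 16.97 TPM in D2A1 in 2D to 47.5 to 67.77 TPM in D2.OR in 3D, and Zfp869 from 12.89 to 15.64 TPM to 24.5 to 30.3 TPM.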

How the data were processed

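RNA was sequenced from 12 libraries in 4 groups of 3 replicates, and groups were taken from the labels. The authors deposited, for each library, RSEM expected counts, TPM values, FPKM values (not used here) and mean transcript lengths per gene, and the deposited series table of TPM values was the same as the library files. The submitters' processing notes name FastQC 0.11.4, Trimmomatic 0.32, STAR 2.5.3, RSEM 1.3.0 and build GRCm38, and strandedness is not given in the sources used here. Levels are TPM. A TPM is relative to all transcripts of a library, and RSEM shares reads between similar genes by estimate, which bears on genes with close paralogs.

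Expected counts were rounded and filtered with filterByExpr (minimum total count 10), scaled by TMM and fitted in edgeR 4.0.16 (R 4.3.3) by quasi-likelihood with the 4 groups and the batch as a block, over all 12 libraries, as the study's model also holds cell line, culture, batch and interaction. Log2 CPM values, as in the differences within batches, took a prior count of 2, which was not set for the fits. P-values were adjusted by Benjamini-Hochberg over 16823 genes, with a threshold of 0.05. Libraries held 47589613 to 73325057 counts, the common biological coefficient of variation was 21.2%, and a group at 3 counts or fewer in each library gives a lower bound of the fold. Mean transcript lengths were tested with limma 3.58.1 on log2 length. Same-numbered libraries deviated together from their group means over 18 pairs (correlation 0.0758 to 0.511, median 0.267), while differently numbered pairs had a median of -0.195, and the study calls the replicate the batch and adjusted its model for it. Alternatives were DESeq2 1.42.0 and its size factors, library totals alone, other filters, limma on log2(TPM + 0.1) and log2(TPM + 1), no replicate block, fewer libraries and leaving out each library or batch. The edgeR line comparison in 2D and the length test were also run on simulated data, in which few genes were changed, unlike in these data. The outcome is not reported here, and nothing is concluded from it. The 10 genes and all gene lists were chosen with earlier results of these data known. All 10 genes and their paralogs are named, and of each other list the 4 genes with the smallest p between the lines in 2D and the 2 with the smallest p between cultures in each line, apart from the list not reported here. For Acta2, Tagln and Srf, the 3 nearest genes with a mean of at least 1 CPM are named. A gene among those nearest to Acta2 and a list of signaling genes are not reported here.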

Additional observations from a re-analysis of the deposited data

Results flagged for a closer look

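Vim went in opposite directions between 3D and 2D in the lines in every batch. In D2A1 it was higher in 3D in batches 1, 2 and 3 (log2 differences of 0.341, 0.712 and 0.591), and in D2.OR it was lower (-0.148, -0.241 and -0.0875). The fitted interaction was -0.687 on the log2 scale (SE 0.33) and did not pass the threshold (edgeR adjusted p = 0.31).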

How the results depend on the processing

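No change of direction concerned a called value: of 97 sign changes over all settings, 0 were called in either fit. Without the replicate block, 10 genes were called between the lines in 2D and 9 in 3D (Vim lost, 1.11, edgeR adjusted p = 0.111), and between cultures in D2A1 0 in place of 1. The latter count was also 0 with limma on log2(TPM + 0.1) and with only the libraries compared. With DESeq2 the interaction had 1 call in place of 0, and the batch comparison had 2 in place of 1 with DESeq2, with at least 10 counts in every library, with library totals alone and with no filter. Leaving out libraries or batches gave 6 to 10 calls between the lines in 2D and 8 to 10 in 3D (lowest without batch 2 in both), 0 to 0 between cultures in D2.OR, 0 to 3 in D2A1, 0 to 2 for the interaction, 0 to 2 for the batch and 0 to 0 for lengths. Over all genes, calls ran from 4227 to 9062 between the lines in 2D (8378 as reported), 5273 to 10298 in 3D (9044), 0 to 1412 between cultures in D2.OR (273), 0 to 6120 in D2A1 (586), 0 to 2999 for the interaction (4; 978 with DESeq2) and 124 to 3566 for the batch (2234). Library totals alone moved the median of all genes to -0.167 in 2D and lowered the higher share among calls from 51.0% to 38.6% (in 3D to -0.1, and 51.5% to 44.0%), and all 10 genes were still called higher in both. The causes were not tested.

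Uncalled values that changed sign under other settings (log2) were Cnn1, 3D-2D in D2.OR -0.378 and -0.122, Cnn2, 3D-2D in D2.OR 0.0159 and 0.0721 and 0.0551 and 0.0551 and 0.0466 and 0.0315, Myl9, batch -0.000434 and -0.199 and -0.0231, Srf, interaction -0.00426, Tagln, batch 0.0152 and 0.107 and 0.0387, Tpm1, 3D-2D in D2A1 0.00959. With libraries left out, the ranges of those that changed sign were Acta2, 3D-2D in D2.OR -0.493 to 1.65, Acta2, 3D-2D in D2A1 -1.52 to 0.978, Acta2, batch -0.0853 to 1.27, Acta2, interaction -0.109 to 2.83, Cnn1, 3D-2D in D2.OR -0.0381 to 1.15, Cnn2 length, lines in 2D -0.0192 to 0.0173, Cnn2 length, lines in 3D -0.00987 to 0.0591, Cnn2, 3D-2D in D2.OR -0.24 to 0.144, Myl9, 3D-2D in D2A1 -1.47 to 1.77, Myl9, batch -0.647 to 0.743, Myl9, interaction -0.955 to 2.27, Srf, batch -0.0432 to 0.158, Srf, interaction -0.286 to 0.184, Tagln length, lines in 3D -0.0412 to 0.000525, Tagln, 3D-2D in D2A1 -0.0574 to 0.63, Tagln, batch -0.33 to 0.33, Tpm1, 3D-2D in D2.OR -0.127 to 0.224, Tpm1, 3D-2D in D2A1 -0.167 to 0.286, Tpm1, batch -0.0259 to 0.334, Tpm1, interaction -0.236 to 0.273, Tpm2, 3D-2D in D2.OR -0.448 to 0.187, Tpm2, 3D-2D in D2A1 -0.5 to 0.331, Tpm2, interaction -0.53 to 0.687, Vcl, 3D-2D in D2.OR -0.339 to 0.105, Vim length, lines in 2D -0.0316 to 0.00284, Vim length, lines in 3D -0.00538 to 0.0202, Vim, 3D-2D in D2.OR -0.345 to 0.0294.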
